A study of Mus musculus with 26 samples.

Results

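Cdh3 ganglion cells are a subset of retinal ganglion cells, the neurons whose axons form the optic nerve, that express green fluorescent protein (GFP) from a Cdh3 BAC. A BAC reporter is a transgene in which a large stretch of genome around a gene, here Cdh3 (the cell adhesion molecule P-cadherin), drives a fluorescent protein. The subset was represented by 2 arrays, which were compared with the 10 arrays of the other ganglion cell subtypes of the series, chosen by label alone (12 of 26 arrays in all). All cells came from mouse retina at postnatal day 6, were dissociated with papain and were sorted by flow cytometry as positive for Thy1, a surface glycoprotein of ganglion cells, and for a reporter. The reporter was GFP for Cdh3 cells, yellow fluorescent protein (YFP) for BD (bistratified dendrite), J, W3 and W7 cells and bgal for Isl2 cells, with 2 replicates from different litters per subtype. The strain was given as Swiss Webster x C57BL/7 for Cdh3 replicate 1, Swiss Webster x C57BL/8 for Cdh3 replicate 2 and C57BL/6 for the other 10 arrays, so strain and subtype cannot be told apart. The last digits 7 and 8 stand as in the labels, may be entry errors for 6 and are not taken here to show that the replicates were different crosses. The labels named neither the number of pooled retinas nor the number of founder lines, and other cells in which the transgene may be active were not profiled.

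Ganglion cells fall into many types that differ in dendritic shape, in the visual feature they respond to and in the brain targets they reach. A minority contains melanopsin, the photopigment encoded by Opn4, and responds to light without rods and cones. These intrinsically photosensitive cells serve the setting of the body clock and the pupil reflex, and the T-box transcription factor Eomes (also called Tbr2) is needed for their formation and upkeep. Cadherins are calcium-dependent adhesion molecules through which neurons with the same members can recognise each other.

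The bases just upstream of the transcription starts of the T-box factor genes Eomes and Tbx20 and of the melanopsin gene Opn4 are shown because these 3 marker genes open the account of the rises in Cdh3 cells. Each run holds 250 bases, is written 5′ to 3′ on the gene's own strand and comes from RefSeq on GRCm38.p6. The Eomes window lies at chr9:118477939-118478188 on the plus strand, the Tbx20 window at chr9:24774304-24774553 on the minus strand and the Opn4 window at chr14:34600143-34600392 on the minus strand. Capitals mark TCACAC, the 6-base core of the T-box half-site, on either strand.
Eomes: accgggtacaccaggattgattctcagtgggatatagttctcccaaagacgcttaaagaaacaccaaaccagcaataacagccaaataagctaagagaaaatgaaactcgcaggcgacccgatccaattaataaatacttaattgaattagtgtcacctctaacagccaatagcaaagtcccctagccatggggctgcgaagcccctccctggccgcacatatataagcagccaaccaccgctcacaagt
Tbx20: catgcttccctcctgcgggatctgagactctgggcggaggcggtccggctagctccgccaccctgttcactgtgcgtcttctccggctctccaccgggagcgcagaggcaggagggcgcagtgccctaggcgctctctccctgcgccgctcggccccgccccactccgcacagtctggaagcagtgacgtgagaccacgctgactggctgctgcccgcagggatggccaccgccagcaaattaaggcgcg
Opn4: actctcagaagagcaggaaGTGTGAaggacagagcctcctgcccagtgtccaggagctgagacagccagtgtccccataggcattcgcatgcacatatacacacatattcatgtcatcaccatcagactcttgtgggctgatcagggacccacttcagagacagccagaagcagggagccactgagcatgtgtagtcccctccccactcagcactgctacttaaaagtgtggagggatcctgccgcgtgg
Only the Opn4 window held the core, on the opposite strand and starting 231 bases before the transcription start. The 7-base half-site TCACACC, which contains that core, was in none of the 3 windows. Over windows of 300 bases and both strands, TCACACC was present for 3 of the 132 higher genes that had a RefSeq entry (2.27%), for 6 of 88 lower genes (6.82%) and for 4.6% of all 27025 genes with an entry. The core TCACAC, searched after the data had been seen, was present for 14.4% of the higher, 14.8% of the lower and 16.4% of all genes. Of the 11222 genes tested that had an entry, 4.2% held TCACACC and 13.6% held TCACAC.

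Cdh3 replicate 1 and replicate 2 had median intensities of 73.26 and 69.22, within the 61.52 to 74.75 of the other ganglion cell arrays. They were not equally alike: over the 2000 most variable genes of the ganglion cell arrays, replicate 1 correlated with replicate 2 at 0.8049. Replicate 1 correlated more highly with BD replicate 1 (0.850), J replicate 1 (0.846), Isl2 replicate 1 (0.809) and J replicate 2 (0.8053). Replicate 2 correlated best with replicate 1 and next with W7 replicate 1 (0.760). These are descriptions across genes, which are not independent replicates. On the log2(intensity + 16) scale used throughout, 678 of 13951 genes differed by at least 1 between the Cdh3 replicates, against 42 between the Isl2 and 1493 between the BD replicates. Markers of other cells also differed. The summed intensity of 13 microglia markers was 13511 in replicate 1 and 998 in replicate 2, against 1577 to 23495 on the other ganglion cell arrays. For 13 pericyte and smooth muscle markers the sums were 12764 and 3022 (others 772 to 16885), and for 18 rod and cone markers 2997 and 752 (others 865 to 3448). Replicate 2 thus had the lowest microglia and rod sums of the 12 arrays. Results that rest on 1 of the Cdh3 arrays are therefore given without it.

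**Figure D1:**
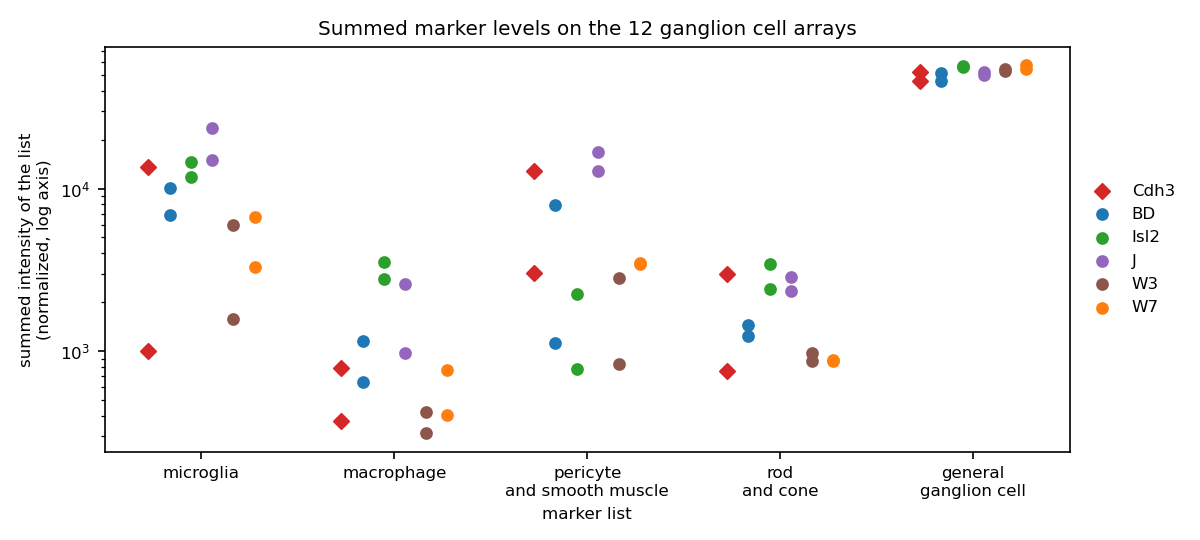
Summed normalized intensity (log axis) of marker lists of microglia, macrophages, pericytes with smooth muscle, rods with cones, and ganglion cells in general, for each of the 12 ganglion cell arrays; each point is 1 array and red diamonds are the Cdh3 arrays. The Cdh3 arrays lie far apart for microglia (13511 and 998) and pericytes (12764 and 3022) and close together for general ganglion cell markers (45756 and 52419).

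General ganglion cell markers were bright on the Cdh3 arrays. Of 18 tested, none was higher and 1 lower, the acetylcholine receptor subunit gene Chrna6, with a median difference of 0.06 beside 0.03 over all genes. Slc17a6, the vesicular glutamate transporter of ganglion cells, stood at 11.47 and 11.89 in the Cdh3 arrays and at 11.36 to 12.23 with a median of 11.70 in the 10 others, and the RNA-binding protein gene Rbpms at 11.10 and 11.61 against 10.80 to 11.63. The groups overlapped for both. Thy1, the antigen of the sort, measured 11.04 and 10.34 against 10.94 to 11.80 with a median of 11.70, so replicate 2 lay below every other ganglion cell array and replicate 1 within their range. Its difference was -0.93 ± 0.25 (SE; limma, adjusted p = 0.0551) and did not pass, whereas without replicate 1 it was -1.28 (adjusted p = 0.0447) and without the W7 subtype -1.01 (adjusted p = 0.0369).

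In all, 291 of 13951 genes passed (2.09%). A gene passed where its limma adjusted p was under 0.05 and its mean in Cdh3 cells differed by 1 log2 unit or more from the mean of the 5 other subtypes. Of these, 176 were higher in Cdh3 cells (1.26%) and 115 lower (0.824%), and 1131 genes were higher and 740 lower at an unadjusted p under 0.05. The shares of 2.09%, 1.26% and 0.824% are the background beside which the counts of every gene list are to be read. Of the higher genes, 12 were among 17 genes tested only because both Cdh3 arrays were above the overall median of all genes and arrays (6.14). For these the filter favoured a rise, though it did not fix whether they passed. Whether or not they passed, 752 genes (5.39%) had both Cdh3 arrays above all 10 others and 374 (2.68%) had both below, 8.07% together. This held for 146 of the higher genes (1.05% of those tested) and 74 of the lower genes (0.530%). Differences of at least 3 log2 units were seen for 14 higher and 6 lower genes. The Cdh3 mean exceeded that of every other subtype by at least 1 for 73 of the higher genes and lay below every other by as much for 35 of the lower ones. The next highest subtype was J for 48 of the higher genes, Isl2 for 38, W7 for 37, BD for 30 and W3 for 23, so no other subtype was next for most of them. Without Cdh3 replicate 2, 175 genes passed, 136 of them among the 291, and without Cdh3 replicate 1, 359 passed, 192 of them among the 291, with 211 lower and 148 higher. Taking subtype means as units, which asks whether Cdh3 stands apart from the spread between subtypes, left 21 genes, 20 of them higher. Among the 20, Ces1d, Chst8, Clec12b, Crybg1, Gpr6 and Tph2 were tested only because both Cdh3 arrays were above the overall median. For these the filter favoured a rise. Of the genes described by name below, Eomes, Tbx20, Zfp90, Gpr6, Vat1l, Etl4, Cldn11, D930028M14Rik, Nppb, Tph2, Ces1d and Slc4a4 were among the 21, and the other passing genes described, Opn4, Cdh1 and Meis2 included, were not.

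**Figure D2:**
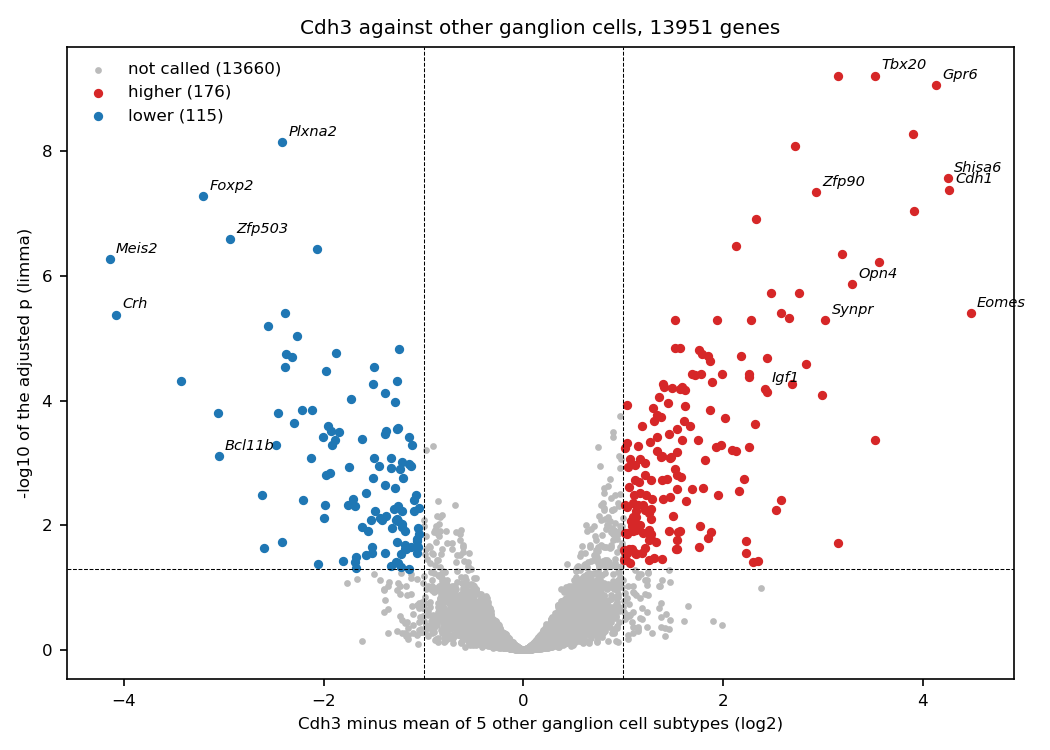
Difference between Cdh3 and the mean of the 5 other ganglion cell subtypes (x axis, log2) against the -log10 of the limma adjusted p (y axis) for 13951 genes; dashed lines mark the thresholds. Red points are the 176 higher genes, led by Eomes at 4.48, and blue points the 115 lower genes, led by Meis2 at -4.14.

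The T-box factor genes Eomes and Tbx20 and the melanopsin gene Opn4 were among the most strongly raised. Eomes measured 11.35 and 11.38 on the Cdh3 arrays and 5.96 to 8.33 with a median of 6.69 on the others, a difference of 4.48 ± 0.43 (22.3-fold, adjusted p = 3.95e-06). The highest of the others was a BD array. Tbx20, another T-box factor, measured 8.38 and 8.66 against 4.70 to 5.51 with a median of 4.95 and was 3.52 ± 0.17 higher (11.5-fold, adjusted p = 6.24e-10). Opn4 measured 9.30 and 8.88 against 4.74 to 6.81 with a median of 5.95, with W7 the next highest subtype at a mean of 6.65, and was 3.29 ± 0.29 higher (9.79-fold, adjusted p = 1.36e-06). The groups did not overlap for any of the 3 genes, and the calls held without either Cdh3 array. With subtype means as units Eomes and Tbx20 passed (adjusted p = 0.0104 and 0.00367), whereas Opn4 did not (adjusted p = 0.0947). As these are bulk samples, a larger share of cells with a transcript and more transcript per cell cannot be told apart.

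Further probe sets of these genes moved the same way. A second Tbx20 probe set read 11.82 and 11.68 against 5.27 to 7.58 (5.22 higher), while the dimmest, not above the overall median on any array, read 5.32 and 6.00 against 4.87 to 5.29. A second Opn4 probe set read 9.30 and 9.42 against 4.35 to 6.28 (4.16 higher) and a second Eomes probe set 7.06 and 7.61 against 4.88 to 6.68 (1.39 higher). None of these groups overlapped, while the size of the difference depended on the probe set.

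Among the 11 T-box genes tested, 2 were higher, 1 was lower and 8 did not pass. The lower one was Tbr1, a factor of other ganglion cell types, at 4.61 and 4.82 against 5.35 to 8.80 with a median of 6.12 (-1.85 ± 0.27, adjusted p = 3.21e-04). Both Cdh3 arrays lay below all others, and the highest Tbr1 level belonged to W7 cells (mean 8.75). Eomes and Tbr1, which are close relatives, thus differed in opposite directions.

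Of 12 melanopsin ganglion cell markers tested, 4 were higher and none lower, and the median difference was 0.47 beside 0.03 over all genes. The fourth besides Eomes, Tbx20 and Opn4 was Igf1, insulin-like growth factor 1, at 12.45 and 12.65 against 7.36 to 12.30 with a median of 10.26 (2.42 ± 0.30, adjusted p = 6.41e-05). Its level in W7 cells came close, with a mean of 12.21 against 12.55 in Cdh3 cells, and the other subtypes lay at 7.87 to 10.33. Lmo2, a transcriptional cofactor, was 0.96 ± 0.23 higher (adjusted p = 0.0225), short of 1 log2 unit and overlapping, and passed in 7 of 30 alternatives. Adcyap1, which encodes the neuropeptide PACAP found in melanopsin cells, stood at 7.84 and 7.72 against 7.27 to 8.57 and did not pass (-0.34, adjusted p = 0.447). The list holds Eomes, Tbx20 and Opn4, which were known from earlier results of these data to be high, and is no independent evidence of direction.

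The genes of the cascade downstream of melanopsin did not pass. Of 23 signalling genes tested, Opn4 among them, Opn4 alone passed, and the median difference was 0.04. As 2.09% of all genes tested passed, the lack of calls downstream does not set the cascade apart from other genes. Gnaq and Gna11, the G proteins to which melanopsin couples, were at 0.37 ± 0.16 and 0.47 ± 0.22 (adjusted p = 0.324 and 0.354). Plcb4, the phospholipase of the pathway, stood at 10.42 and 10.66 against 10.25 to 11.32 (-0.20 ± 0.19, adjusted p = 0.725). The cation channel genes Trpc6 and Trpc7 were at 0.49 ± 0.21 and 0.18 ± 0.19 (adjusted p = 0.317 and 0.756). For Gna11 both Cdh3 arrays exceeded all others, and for the other 4 genes the groups overlapped.

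The P-cadherin gene itself gave little signal. The brighter of the Cdh3 probe sets read 5.33 and 4.91 on the Cdh3 arrays and 4.43 to 5.26 on the others, and neither exceeded the overall median of 6.14 on any of the 26 arrays, so the gene was not tested. A second probe set read 5.54 and 5.85 against 4.09 to 4.54, 1.45 higher and without overlap. The immediate neighbours of Cdh3 in the RefSeq order of GRCm38.p6 rose far more. Cdh1, the epithelial cadherin gene on one side, measured 9.29 and 9.95 against 4.39 to 7.05 with a median of 5.28 (4.26 ± 0.29, 19.2-fold, adjusted p = 4.18e-08). Zfp90, a zinc finger gene on the other side, measured 9.90 and 10.11 against 6.87 to 7.40 with a median of 7.00 (2.93 ± 0.20, 7.63-fold, adjusted p = 4.59e-08). Both were clear of all 10 other arrays. Of the 10 genes on each side, 19 were measured and 17 tested, and these 2 alone passed. The remaining tested neighbours lay between -0.37 and 0.60, the latter being Utp4, a ribosome biogenesis gene (adjusted p = 0.13). The stretch of genome in the transgene is not given in the sources used here, and RNA from a transgene copy and from the chromosomal gene cannot be told apart on these arrays.

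**Figure D3:**
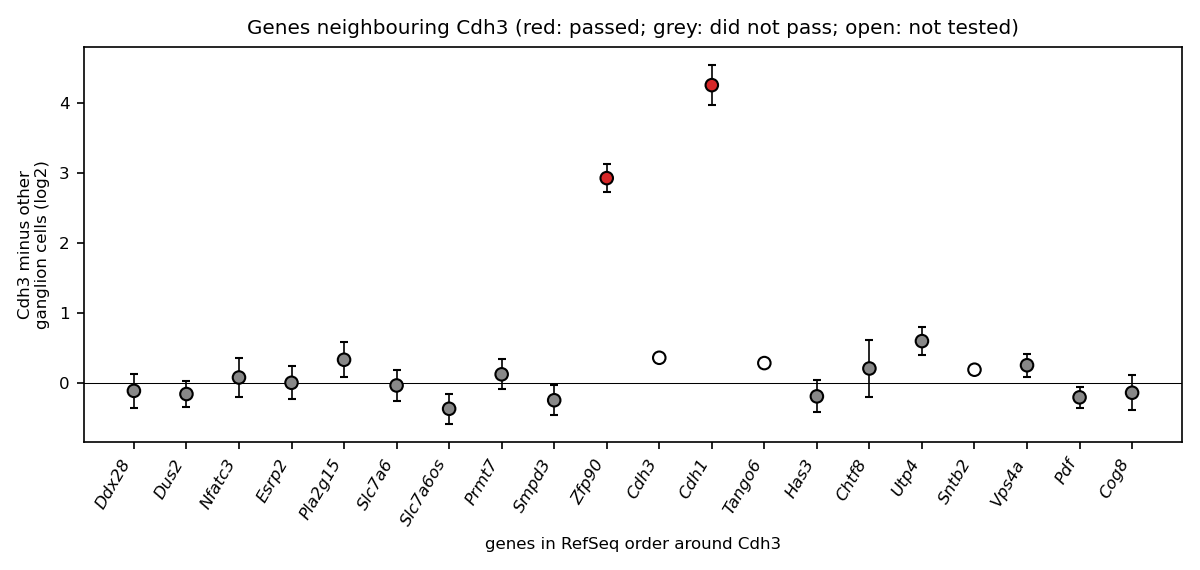
Difference between Cdh3 and other ganglion cells (y axis, log2, with SE) for the genes around Cdh3 in RefSeq order (x axis, not to scale). Red points passed, grey points did not and open points were too dim to be tested. Zfp90 (2.93) and Cdh1 (4.26), the immediate neighbours, stand above the rest, which lie between -0.37 and 0.60.

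The 15 largest rises held genes of varied kinds besides these. Gpr6, an orphan G protein-coupled receptor gene, measured 8.63 and 8.94 against 4.42 to 4.85 with a median of 4.61 (4.14 ± 0.21, 17.6-fold, adjusted p = 8.80e-10). The 10 other arrays all lay near the floor of the scale, 4.09. Only the Cdh3 arrays took Gpr6 past the filter on dim genes, which favoured a rise, so it is described rather than counted as support. Gpr6 could not be tested with either Cdh3 array left out. Shisa6, which encodes an auxiliary subunit of AMPA-type glutamate receptors, measured 10.49 and 10.43 against 4.90 to 7.18 with a median of 6.24 (4.25 ± 0.28, adjusted p = 2.75e-08). Synpr, the synaptic vesicle protein synaptoporin, was abundant in all and higher in Cdh3 cells, at 12.07 and 12.39 against 8.27 to 10.40 with a median of 9.21 (3.02 ± 0.30, adjusted p = 5.17e-06). Vat1l was 3.91 ± 0.28 higher and Cldn11, a claudin of tight junctions, 3.19 ± 0.26, with Cdh3 arrays at 7.13 and 7.97 against 4.11 to 4.94. Hmcn1, an extracellular matrix protein gene, was 2.99 ± 0.38 higher and the transcript D930028M14Rik 3.15 ± 0.15. All were separated from every other array.

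Some of these rises differed in size among probe sets or were less firm. Ndnf, a secreted neurotrophic factor gene, was 3.56 ± 0.30 higher, at 9.69 and 9.86 against 4.62 to 8.68, with W7 next, but its other probe set differed by 0.11. Etl4 was 3.90 ± 0.22 higher, and its next brightest probe set differed by 0.02. A dimmer Etl4 probe set read 6.88 and 6.99 against 4.70 to 5.80 (1.76 higher, without overlap), and the 3 others differed by -0.44 to 0.32. Pde7b, a phosphodiesterase that degrades cyclic AMP, was 3.52 ± 0.53 higher, and its next brightest probe set differed by 0.24, while a dimmer one read 6.32 and 5.92 against 4.32 to 5.23 (1.49 higher, without overlap). Trhde, an enzyme gene for breakdown of thyrotropin-releasing hormone, measured 10.27 and 9.98 against 6.01 to 8.09 and was 3.15 ± 0.73 higher (adjusted p = 0.019), but without Cdh3 replicate 1 it was 3.01 (adjusted p = 0.159) and without replicate 2 3.29 (adjusted p = 0.17). Calls also ended with the median of a gene's probe sets for Etl4 (0.28) and Pde7b (0.56) and with a pseudocount of 1 for Trhde (3.34).

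**Figure D4:**
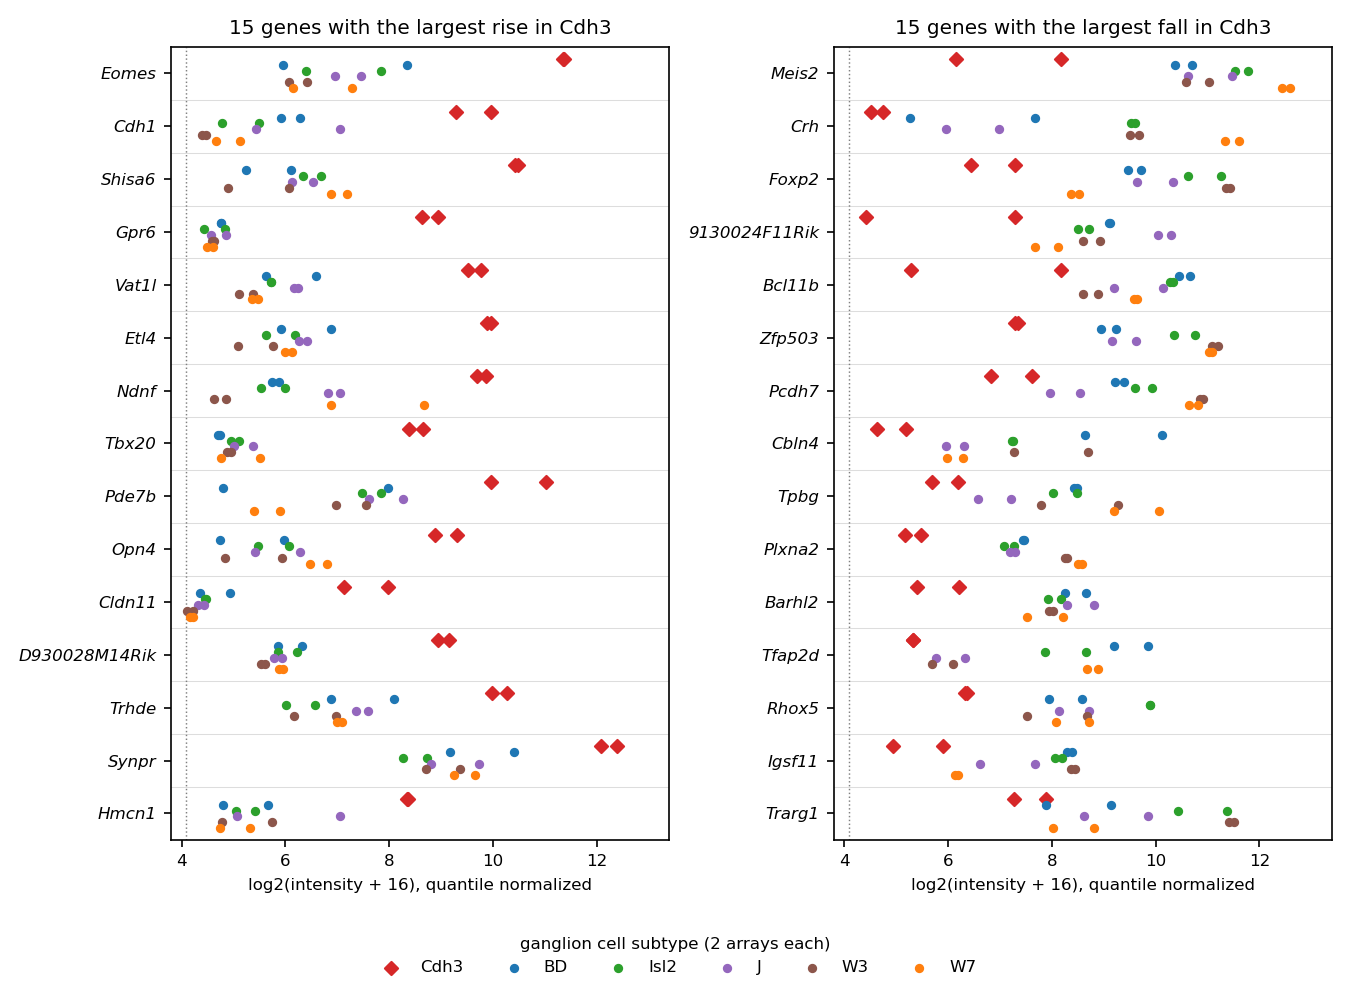
Levels in log2(intensity + 16) (x axis) of the 15 genes with the largest rise (left) and the 15 with the largest fall (right) in Cdh3 cells among genes whose groups did not overlap; each point is 1 array, red diamonds are Cdh3, colours mark the other subtypes and the dotted line is the floor at 4.09. The Cdh3 arrays of Eomes (11.35 and 11.38) nearly coincide, while those of Bcl11b (8.17 and 5.28) lie far apart.

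A few raised genes outside the largest 15 kept their call with subtype means as units and were picked after their values were seen. Tph2, the neuronal enzyme of serotonin synthesis, measured 7.76 and 7.96 against 4.63 to 5.68 with a median of 5.43 (2.58 ± 0.25, adjusted p = 3.95e-06). Ces1d, a carboxylesterase gene, measured 7.27 and 7.14 against 4.20 to 4.67 with a median of 4.53 (2.72 ± 0.16, adjusted p = 8.49e-09). Slc4a4, a sodium bicarbonate cotransporter gene, measured 7.10 and 7.89 against 4.71 to 5.19 with a median of 5.03 (2.48 ± 0.23, adjusted p = 1.89e-06). In each case the 10 other arrays formed a narrow low band and the Cdh3 arrays lay more than 1 log2 unit above it. Tph2 and Ces1d, like Gpr6, were tested only because both Cdh3 arrays were above the overall median, so the filter favoured a rise. The call of Slc4a4 also ended with the next brightest probe set (0.59).

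Several of the 15 largest falls were those of transcription factor genes. Meis2, a homeobox gene, measured 8.18 and 6.16 against 10.37 to 12.60 with a median of 11.25 (-4.14 ± 0.35, 17.7-fold lower, adjusted p = 5.46e-07). Both Cdh3 arrays were below all others though they differed from each other, and the difference was -5.15 (adjusted p = 5.28e-08) without replicate 1 and -3.14 (adjusted p = 2.30e-05) without replicate 2. Foxp2, a forkhead factor of a group of ganglion cell types, measured 7.30 and 6.44 against 8.38 to 11.44 with a median of 10.03 (-3.21 ± 0.22, adjusted p = 5.37e-08), with W3 highest at 11.40. Zfp503, a zinc finger gene, measured 7.35 and 7.28 against 8.94 to 11.21 with a median of 10.56 (-2.93 ± 0.23, adjusted p = 2.57e-07), and its dim second probe set differed by -0.58. Both Foxp2 and Zfp503 were clear of the other 10 arrays.

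Of 59 ganglion cell transcription factor genes tested, 7 were higher, 8 lower and 44 did not pass, with a median difference of -0.24 beside 0.03 over all genes. The lower ones, besides Meis2 and Foxp2, were Barhl2 (-2.38 ± 0.23), Tfap2d (-2.38 ± 0.26), Bcl11b (-3.05 ± 0.49), Neurod1 (-1.75 ± 0.34), Isl2 (-1.51 ± 0.19) and Pbx3 (-1.32 ± 0.22). Barhl2, a homeobox factor of ganglion and amacrine cells, lay at 6.21 and 5.40 against 7.53 to 8.82. Tfap2d, an AP-2 factor, lay at 5.33 and 5.32 against 5.69 to 9.85, with J and W3 cells also low. Isl2, a LIM homeobox factor that marks many ganglion cells projecting to the contralateral side, lay at 5.92 and 5.84 against 6.25 to 8.20 with a median of 7.50. Its highest levels, 8.09 and 8.20, were those of the cells sorted as Isl2-positive, so the sort itself favoured a high level there. The call of Isl2 held without the Isl2 subtype. Barhl2, Tfap2d and Isl2 were below every other array. Bcl11b, a zinc finger factor also called Ctip2, lay at 8.17 and 5.28 against 8.60 to 10.66. Without Cdh3 replicate 2, Bcl11b was at -1.61 (adjusted p = 0.0884) and Neurod1 at -1.09 (adjusted p = 0.331), and without replicate 1 Pbx3 was at -1.11 (adjusted p = 0.057), none of them passing. Without Isl2 replicate 1, Isl2 replicate 2 or J replicate 1, another probe set stood for Bcl11b and gave -1.78 to -1.71. Calls also ended with the next brightest probe set for Pbx3 (-0.43) and Neurod1 (-1.25) and with the median of a gene's probe sets for Pbx3 (-0.88).

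Pou4f1 and Isl1, factors of most ganglion cells, did not pass. Pou4f1, which encodes Brn3a, lay at 11.56 and 10.93 against 11.61 to 13.05 with a median of 12.80, below all others in both arrays but with an adjusted p of 0.155 for a difference of -1.39 ± 0.47. It did pass, and lower, in 5 of 31 settings, which were with the 12 ganglion cell arrays normalized and fitted alone (at -1.43, adjusted p = 0.0235), with the 12 ganglion cell arrays fitted alone (at -1.39, adjusted p = 0.0254), with a pseudocount of 64 (at -1.37, adjusted p = 0.0417), with the median of a gene's probe sets (at -1.70, adjusted p = 1.26e-04) and with the next brightest probe set (at -2.02, adjusted p = 4.75e-05). Isl1 lay at 11.79 and 12.05 against 11.70 to 12.37 (-0.20 ± 0.29, adjusted p = 0.836).

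The 7 higher factors included 3 of the 6 Iroquois homeobox genes. Irx6 measured 8.91 and 8.97 against 5.53 to 8.09 with a median of 6.65 (2.28 ± 0.23, adjusted p = 5.17e-06), with J the next subtype. Irx1 measured 8.03 and 8.50 against 4.62 to 7.26 (2.58 ± 0.49, adjusted p = 0.00394) and Irx5 9.35 and 9.79 against 8.06 to 8.81 (1.19 ± 0.17, adjusted p = 2.55e-04). These 3 Irx genes were clear of the other arrays. Irx2, Irx3 and Irx4 did not pass, at -0.48 ± 0.25, 0.41 ± 0.30 and -0.59 ± 0.20 (adjusted p = 0.436, 0.607 and 0.171), each with overlap. Nr2f1, a nuclear receptor, rose by 1.62 ± 0.21 (adjusted p = 1.20e-04), at 10.50 and 10.36 against 8.27 to 9.50. Without Cdh3 replicate 2, Irx1 was at 2.34 (adjusted p = 0.127) and Irx5 at 0.97 (adjusted p = 0.0352), the latter short of 1 log2 unit, while Irx6 and Nr2f1 kept their calls without either array. The call of Irx1 also ended with the 12 ganglion cell arrays fitted alone (2.58) and with the 12 ganglion cell arrays normalized and fitted alone (2.68).

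Onecut2, Onecut1 and Nfix also passed, at 2.30 ± 0.59, 1.15 ± 0.18 and 1.21 ± 0.29 (adjusted p = 0.0383, 5.28e-04 and 0.0228). Without Cdh3 replicate 1, Onecut2 was at 2.66 (adjusted p = 0.106) and Onecut1 at 0.94 (adjusted p = 0.0359), and without replicate 2, Onecut2 was at 1.95 (adjusted p = 0.456) and Nfix at 0.59 (adjusted p = 0.733). The call of Onecut2 also ended without Isl2 replicate 1, Isl2 replicate 2, J replicate 2 or W7 replicate 2 (2.25 to 2.33, adjusted p = 0.0554 to 0.064). Onecut factors are shared with horizontal cells, and of 7 horizontal cell markers tested 3 were higher, Onecut1, Onecut2 and Calb1. The other 4 tested did not pass. The summed intensity of that list, which includes the 3 higher genes, was 4513 and 5209 on the Cdh3 arrays against 2602 to 3779 on the others. Lhx1, another gene of that list, was at 4.27 and 4.39, near the floor of 4.09, against 4.17 to 4.73. The part of horizontal cell RNA in these differences was not tested. Further calls ended with the median of a gene's probe sets for Onecut1 (0.57) and with a pseudocount of 64 for Onecut1 (0.74). Over all alternatives Onecut2 was at 1.38 to 2.66 with its call lost in 13 of 31 and Nfix was at 0.11 to 2.02 with its call lost in 7 of 30.

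**Figure D5:**
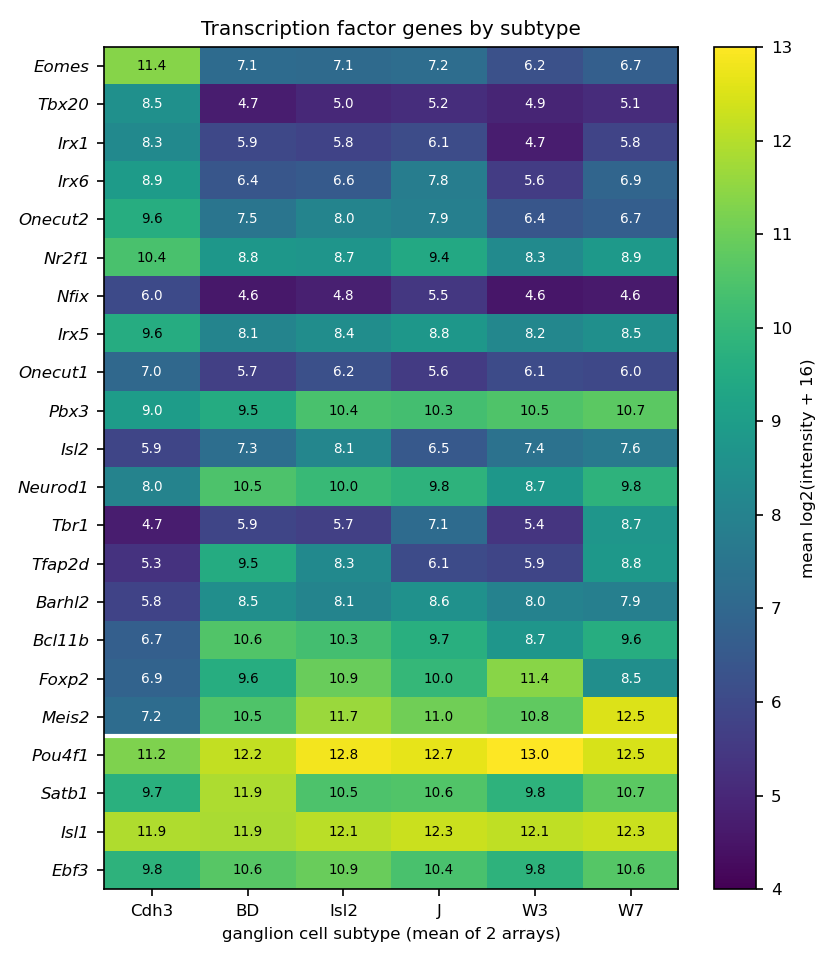
Mean log2(intensity + 16) of 2 arrays per subtype (colour and printed value) for transcription factor genes (rows) in the 6 ganglion cell subtypes (columns); rows above the white line passed in Cdh3 against the rest and the 4 below it did not. Eomes is at 11.37 in Cdh3 cells and at most 7.21 elsewhere, and Meis2 at 7.17 in Cdh3 cells and at least 10.54 elsewhere.

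Of 18 markers of other ganglion cell types tested, 3 were higher and 3 lower, with a median of -0.12. The higher ones were Calb1, Sdk2 and Tac1, and the lower ones Foxp2, Tbr1 and Cartpt. Calb1, the calcium-binding protein calbindin, lay at 10.38 and 10.99 against 6.93 to 10.002 (2.35 ± 0.60, adjusted p = 0.0373). Its call was lost without Cdh3 replicate 1, when it was at 2.66 (adjusted p = 0.117), and without replicate 2, at 2.06 (adjusted p = 0.426). It also ended without Isl2 replicate 1, Isl2 replicate 2, J replicate 1, J replicate 2, W3 replicate 2 or W7 replicate 1 (2.21 to 2.38, adjusted p = 0.0502 to 0.0629). Cartpt, a neuropeptide gene of direction-selective ganglion cells, lay at 7.65 and 5.54 against 6.65 to 11.37, with BD cells highest at a mean of 11.19. It was at -2.06 ± 0.54 (adjusted p = 0.0408) and overlapped the others, and without Cdh3 replicate 2 it was at -1.003 (adjusted p = 0.803). Its call was lost without BD replicate 2, Isl2 replicate 1, J replicate 1, W3 replicate 1 or W7 replicate 1 (-2.09 to -1.95, adjusted p = 0.0503 to 0.0729). Satb1, a chromatin organiser of direction-selective cells, was just short of 1 log2 unit lower (adjusted p = 0.0083) and passed in 11 of 31 alternatives. Over all alternatives Calb1 was at -0.07 to 2.66 with its call lost in 14 of 31, Cartpt was at -3.10 to -1.003 with its call lost in 13 of 30 and Tac1 was at 0.62 to 1.47 with its call lost in 6 of 30.

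Classical cadherins changed in both directions: of 15 tested, 3 were higher, 3 lower and 9 did not pass, with a median of 0.00. Besides Cdh1, Cdh6 measured 11.14 and 11.47 against 6.76 to 11.84 with a median of 9.10 (2.02 ± 0.28, adjusted p = 1.88e-04). Cdh6, a type II cadherin with a role in matching ganglion cell axons to brain targets, overlapped the others because BD cells reached a mean of 11.39, and a second probe set differed by 0.52. Cdh22 measured 7.90 and 7.70 against 5.85 to 7.31 (1.31 ± 0.18, adjusted p = 2.13e-04), close to W7 cells at 7.28. On the other side Cdh13, a cadherin anchored by a lipid, measured 9.13 and 8.93 against 9.51 to 10.85 (-1.28 ± 0.17, adjusted p = 1.05e-04). Cdh10 and Cdh4 (R-cadherin) were at -1.31 ± 0.28 and -1.33 ± 0.35 (adjusted p = 0.011 and 0.0441). Without Cdh3 replicate 1 these 2 were at -1.34 (adjusted p = 0.0857) and -1.35 (adjusted p = 0.205), and without replicate 2 at -1.28 (adjusted p = 0.166) and -1.31 (adjusted p = 0.334). The call of Cdh4 also ended without BD replicate 1, BD replicate 2, Isl2 replicate 1, Isl2 replicate 2, J replicate 1, J replicate 2, W3 replicate 1, W3 replicate 2 or W7 replicate 1 (-1.37 to -1.28, adjusted p = 0.0502 to 0.0733). Other probe sets of Cdh13 and Cdh10 differed by -0.68 and -0.28. Of 11 catenins, the intracellular partners of cadherins, Ctnna1 alone was higher (1.08 ± 0.22, adjusted p = 0.00845), and without Cdh3 replicate 1 it was at 0.62 (adjusted p = 0.319). The call also ended without BD replicate 2 (0.98, adjusted p = 0.00599). Calls were lost as well with the median of a gene's probe sets for Cdh13 (-0.28) and with a pseudocount of 64 for Cdh22 (0.95). Over all alternatives Cdh4 was at -1.92 to -1.13 with its call lost in 20 of 31, Cdh10 was at -1.49 to -0.28 with its call lost in 7 of 31 and Ctnna1 was at 0.27 to 1.54 with its call lost in 9 of 31.

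Delta protocadherins, a related family of adhesion molecules, also split, with 2 of 9 higher and 2 lower and a median of -0.30. Pcdh19 measured 11.27 and 11.59 against 8.86 to 11.30 (1.49 ± 0.19, adjusted p = 6.25e-05), level with W7 cells at 11.29. Pcdh9 measured 11.70 and 12.21 against 10.20 to 11.50 (1.22 ± 0.20, adjusted p = 9.81e-04) and was at 0.97 (adjusted p = 0.0955) without Cdh3 replicate 2. Pcdh7 measured 6.83 and 7.63 against 7.96 to 10.91 with a median of 9.77 (-2.56 ± 0.26, adjusted p = 6.36e-06), while its dimmer probe sets differed by -0.60 and -0.28. Pcdh10 measured 8.10 and 7.73 against 8.09 to 10.83 (-1.72 ± 0.22, adjusted p = 9.45e-05), with W7 cells nearly as low. The call of Pcdh7 also ended with the median of a gene's probe sets (-0.28).

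Immunoglobulin superfamily recognition molecules included 2 higher and 5 lower genes of 36 tested, with a median of 0.19. Sdk2 (sidekick 2), which directs matching of synaptic partners in the inner retina, measured 11.46 and 11.66 against 9.42 to 10.65 with a median of 10.19 (1.47 ± 0.24, adjusted p = 8.34e-04), but its next brightest probe set differed by -0.37. Kirrel3 was 1.80 ± 0.32 higher (adjusted p = 0.00252) and at 1.57 (adjusted p = 0.116) without Cdh3 replicate 2. Igsf11, a homophilic adhesion molecule of synapses, measured 5.91 and 4.94 against 6.13 to 8.45 (-2.21 ± 0.30, adjusted p = 1.42e-04). Negr1 and Mdga2, both anchored by lipids at the cell surface, were at -1.93 ± 0.28 and -1.92 ± 0.29 (adjusted p = 3.02e-04 and 5.13e-04) and below all 10 other arrays. Alcam was at -1.57 ± 0.29 (adjusted p = 0.00304) and Dscaml1 at -2.62 ± 0.49 (adjusted p = 0.00329). Without Cdh3 replicate 2, Alcam was at -1.58 (adjusted p = 0.0718) and Dscaml1 at -1.14 (adjusted p = 0.3), and without replicate 1 Dscaml1 was at -4.09 (adjusted p = 1.38e-05). Other losses came with the next brightest probe set for Alcam (-1.34) and Dscaml1 (-0.29), with the median of a gene's probe sets for Sdk2 (0.55) and with the 12 ganglion cell arrays fitted alone for Dscaml1 (-2.62). Calls failed too with the 12 ganglion cell arrays normalized and fitted alone for Dscaml1 (-2.67). Over all alternatives Kirrel3 was at 0.65 to 2.24 with its call lost in 6 of 30.

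Guidance receptors and ligands moved gene by gene. Of 30 semaphorins, plexins and neuropilins, 1 was higher and 3 lower, with a median of -0.11. Plxna2, a plexin that receives semaphorin signals in the inner retina, measured 5.48 and 5.17 against 7.07 to 8.58 with a median of 7.45 (-2.41 ± 0.14, adjusted p = 7.23e-09), with a gap to all others. Of its other probe sets, the brightest read 7.35 and 7.01 against 7.22 to 9.47 (-1.06) and another 5.26 and 5.46 against 4.95 to 9.09 (-2.30), both with overlap. A further Plxna2 probe set read 5.38 and 5.18 against 5.54 to 6.86 (-0.98), without overlap. Its partner Sema6a measured 10.09 and 10.05 against 10.93 to 11.67 (-1.29 ± 0.23, adjusted p = 0.00254) and Sema3e 8.91 and 8.93 against 9.77 to 11.06 (-1.39 ± 0.25, adjusted p = 0.00223). Without Cdh3 replicate 2, these were at -1.27 (adjusted p = 0.0693) and -1.41 (adjusted p = 0.0561), and the next brightest Sema6a probe set differed by -0.16. Sema5a, a repellent ligand, measured 7.79 and 8.29 against 5.16 to 7.44 (1.92 ± 0.30, adjusted p = 5.53e-04). More calls were lost with the next brightest probe set for Sema5a (1.32), with the median of a gene's probe sets for Sema6a (-0.16) and Sema5a (0.49) and with the 12 ganglion cell arrays normalized and fitted alone for Plxna2 (-1.06).

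Among 20 Slit, Robo and netrin genes, 4 were higher and 1 lower, with a median of 0.11. Unc5d, a netrin and FLRT receptor gene, measured 10.71 and 10.96 against 8.14 to 9.33 with a median of 8.43 (2.26 ± 0.27, adjusted p = 4.18e-05). Ntng1, netrin-G1, measured 8.71 and 8.97 against 9.81 to 11.85 with a median of 10.16 (-1.62 ± 0.24, adjusted p = 4.11e-04). Both were clear of the other 10 arrays. Lrrc4c, whose product binds netrin-G1, was 1.54 ± 0.26 higher (adjusted p = 0.00155) and at 1.12 (adjusted p = 0.147) without Cdh3 replicate 2. Unc5a and Flrt2 were 1.12 and 1.04 higher, and their calls were lost without Cdh3 replicate 1 at 1.02 (adjusted p = 0.223) and 1.20 (adjusted p = 0.0847) and without replicate 2 at 1.21 (adjusted p = 0.187) and 0.88 (adjusted p = 0.401). The call of Unc5a also ended without Isl2 replicate 1 (1.10, adjusted p = 0.0509) and that of Flrt2 without Isl2 replicate 1 or W7 replicate 2 (0.98 to 1.01, adjusted p = 0.0453 to 0.0514). Of 17 Eph receptors and ephrins tested none passed (median 0.11), which is near the 2.09% of all genes tested. Calls also ended with the next brightest probe set for Ntng1 (-2.01) and Lrrc4c (0.13) and with the median of a gene's probe sets for Ntng1 (-1.69). Over all alternatives Unc5a was at 0.57 to 1.69 with its call lost in 8 of 29 and Flrt2 was at 0.78 to 1.20 with its call lost in 12 of 31.

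Of 35 teneurins, latrophilins and synaptic adhesion genes, 3 were higher and none lower (median 0.16): Lrrtm2 (1.40 ± 0.26), Lrfn5 (1.29 ± 0.24) and Tenm1 (1.28 ± 0.29). Without Cdh3 replicate 2 they were at 1.24 (adjusted p = 0.136), 0.97 (adjusted p = 0.218) and 1.07 (adjusted p = 0.334), and without replicate 1 Tenm1 was at 1.49 (adjusted p = 0.0554). Lrrtm2 and Lrfn5 kept their calls without replicate 1, so none of the 3 calls held in both cases. Further calls ended with a pseudocount of 1 for Lrfn5 (1.38). Over all alternatives Tenm1 was at 0.21 to 1.49 with its call lost in 7 of 31.

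Neuropeptide genes differed in kind: 3 of 22 were higher and 4 lower, with a median of -0.23. Nppb, brain natriuretic peptide, measured 8.50 and 8.26 against 5.74 to 6.59 with a median of 6.26 (2.12 ± 0.17, adjusted p = 3.34e-07). Pnoc, the precursor of nociceptin, measured 6.91 and 7.62 against 5.02 to 6.00 with a median of 5.34 (1.85 ± 0.21, adjusted p = 1.96e-05). Both were above all other arrays. Tac1, the precursor of substance P, was abundant in most subtypes and measured 12.18 and 12.42 against 8.93 to 11.81 with a median of 11.35 (1.28 ± 0.29, adjusted p = 0.0138), but was at 1.40 (adjusted p = 0.0728) without Cdh3 replicate 1 and 1.16 (adjusted p = 0.253) without replicate 2.

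Crh, corticotropin-releasing hormone, had one of the largest falls, at 4.75 and 4.53 against 5.26 to 11.60 with a median of 9.52 (-4.07 ± 0.40, adjusted p = 4.18e-06). Its level varied widely among the other subtypes, from means of 6.47 in BD and 6.47 in J cells to 11.47 in W7 cells. Cbln4, a secreted synaptic organiser, measured 4.64 and 5.20 against 5.96 to 10.12 (-2.46 ± 0.33, adjusted p = 1.56e-04), with BD highest at 9.38. Nts, neurotensin, measured 5.93 and 4.73 against 5.32 to 9.38 (-2.39 ± 0.28, adjusted p = 2.92e-05) and overlapped with J cells, which averaged 5.52. Of 23 peptide and amine receptor genes none passed (median -0.10), which is near the 2.09% of all genes tested.

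Growth factor genes apart from Igf1 also gave calls, beside 2.09% of all genes tested that passed. Among 11 genes of the IGF system, Igf1 was higher and the binding protein gene Igfbpl1 lower, at 5.64 and 4.93 against 5.77 to 8.54 (-1.98 ± 0.34, adjusted p = 0.00153), or -1.62 (adjusted p = 0.11) without Cdh3 replicate 2. Ngfr, the low-affinity neurotrophin receptor gene, was the single call among 13 GDNF and neurotrophin genes, at 6.87 and 7.05 against 4.33 to 6.04 with a median of 5.26 (1.67 ± 0.24, adjusted p = 2.55e-04). Both Cdh3 arrays exceeded all others. Of 37 BMP, TGF-beta and Wnt genes, Sfrp1, a secreted Wnt antagonist, was 1.87 ± 0.25 higher (adjusted p = 1.42e-04), although its next brightest probe set differed by -0.02. Fstl5 and Sfrp2 were at -1.26 ± 0.15 and -1.19 ± 0.28 (adjusted p = 4.90e-05 and 0.0205), and Sfrp2 was at -1.28 (adjusted p = 0.0991) without replicate 1 and -1.09 (adjusted p = 0.285) without replicate 2. Calls were lost as well with the next brightest probe set for Igfbpl1 (-0.27) and Fstl5 (-1.01), with the median of a gene's probe sets for Sfrp1 (0.26) and with a pseudocount of 1 for Igfbpl1 (-0.46). Other losses came with a pseudocount of 64 for Ngfr (0.97). Over all alternatives Sfrp2 was at -1.37 to -0.86 with its call lost in 6 of 30.

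Voltage-gated channel genes gave 1 call, beside 2.09% of all genes tested that passed, so the counts do not set these families apart. None of 9 voltage-gated sodium channel genes and none of 30 potassium channel genes passed (medians -0.03 and -0.04). Of 19 calcium channel genes, Cacna2d3, an auxiliary subunit, passed, at 8.77 and 8.98 against 5.22 to 7.47 with a median of 6.68 (2.26 ± 0.27, adjusted p = 3.80e-05). It lay above all 10 other arrays and kept its call without either Cdh3 array.

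Transmitter receptor genes that passed were mostly lower. Of 19 glutamate receptor genes, 2 kainate receptor subunit genes were lower, Grik3 at 7.83 and 6.84 against 7.19 to 10.64 (-1.95 ± 0.28, adjusted p = 2.55e-04) and Grik1 at 5.93 and 6.65 against 6.72 to 8.39 (-1.39 ± 0.34, adjusted p = 0.0279). W7 cells were nearly as low in Grik3 (mean 7.38). Of 24 GABA, glycine and acetylcholine receptor genes, 1 was higher and 4 lower, with a median of -0.06. Gabrb2, a GABA receptor subunit, measured 8.83 and 9.16 against 9.52 to 11.14 (-1.38 ± 0.20, adjusted p = 3.42e-04) and kept its call without either Cdh3 array. Gabra2, Glra1 and Chrna6, at -1.38, -1.51 and -1.22, and Gabra3, at 1.10, lost theirs without Cdh3 replicate 2, when they were at -0.89 (adjusted p = 0.381), -1.04 (adjusted p = 0.593), -0.96 (adjusted p = 0.25) and 0.91 (adjusted p = 0.301). Grik1 was at -1.02 (adjusted p = 0.347) without replicate 1 and -1.74 (adjusted p = 0.0794) without replicate 2. The call of Grik1 also ended without Isl2 replicate 1 (-1.34, adjusted p = 0.0523) and that of Glra1 without Isl2 replicate 1 (-1.49, adjusted p = 0.0512), and the next brightest probe sets of Chrna6, Glra1, Grik1 and Grik3 differed by 0.42, 0.26, -0.14 and -0.05. Calls failed too with the median of a gene's probe sets for Chrna6 (-0.40) and with the 12 ganglion cell arrays fitted alone for Chrna6 (-1.22). Over all alternatives Grik1 was at -1.74 to -0.14 with its call lost in 9 of 31, Gabra2 was at -1.87 to -0.64 with its call lost in 6 of 31, Gabra3 was at 0.63 to 1.29 with its call lost in 7 of 30 and Glra1 was at -2.10 to 0.26 with its call lost in 11 of 31.

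Of 20 genes of calcium-binding proteins, Necab2 (1.39 ± 0.17, adjusted p = 5.32e-05) and Hpcal4 (1.53 ± 0.37, adjusted p = 0.0242) were higher besides Calb1. Necab2 measured 10.36 and 10.37 against 8.24 to 9.44 and kept its call without either Cdh3 array, whereas Hpcal4 was at 1.59 (adjusted p = 0.132) without replicate 1 and 1.47 (adjusted p = 0.275) without replicate 2. The call of Hpcal4 also ended with a pseudocount of 1 (1.59).

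Several further genes with large falls belong to none of the lists described so far. 9130024F11Rik, a transcript without a named protein, measured 7.29 and 4.43 against 7.69 to 10.30 (-3.06 ± 0.42, adjusted p = 1.60e-04), with -4.48 (adjusted p = 4.62e-08) left without Cdh3 replicate 1 and -1.63 (adjusted p = 0.00273) without replicate 2. Rhox5, a homeobox gene of the X chromosome best known from the reproductive tract, measured 6.34 and 6.36 against 7.53 to 9.90 (-2.27 ± 0.24, adjusted p = 9.07e-06). Trarg1 measured 7.89 and 7.27 against 7.90 to 11.51 (-2.13 ± 0.34, adjusted p = 8.34e-04) and was at -1.82 (adjusted p = 0.0694) without Cdh3 replicate 2. Tpbg, the trophoblast glycoprotein gene, measured 6.20 and 5.69 against 6.57 to 10.08 (-2.41 ± 0.56, adjusted p = 0.0186) and was at -2.66 (adjusted p = 0.0824) without replicate 1 and -2.15 (adjusted p = 0.295) without replicate 2. All were below the other 10 arrays. Over all alternatives Tpbg was at -2.78 to -1.20 with its call lost in 7 of 31.

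Marker lists of other cells are given beside the 2.09% of all genes tested that passed. Of 11 microglia markers tested none passed, though all 11 had differences below 0, with a median of -1.06. C1qa, a complement gene of microglia, lay at 10.64 and 6.28 against 7.00 to 11.68. Its difference was -3.40 without Cdh3 replicate 1 and 0.97 without replicate 2. For Csf1r, another microglia marker, the values were -3.12 and 0.91, so the sign of both genes depended on replicate 2. Of 8 macrophage markers 3 were lower, Pf4 (-2.20 ± 0.42), F13a1 (-1.27 ± 0.18) and Mrc1 (-1.09 ± 0.22). Their summed list intensity was 787 and 370 against 312 to 3510, with Isl2 cells highest for each gene, and without Cdh3 replicate 2 Pf4 was at -1.73 (adjusted p = 0.197) and Mrc1 at -1.002 (adjusted p = 0.154). Of 10 pericyte and smooth muscle markers none passed (median 0.67), with Rgs5, a pericyte gene, at 12.42 and 10.74 against 6.52 to 12.71. None of 7 endothelial, 12 Muller glia and astrocyte, 16 rod and cone or 14 bipolar markers passed. Of 15 amacrine markers, Neurod1 and Tfap2c were lower, the latter at -1.68 ± 0.42 (adjusted p = 0.0319) and at -1.69 (adjusted p = 0.177) without Cdh3 replicate 1 and -1.65 (adjusted p = 0.289) without replicate 2. That call also ended without Isl2 replicate 1, Isl2 replicate 2 or W3 replicate 1 (-1.69 to -1.65, adjusted p = 0.0503 to 0.0544). Fos, an immediate early gene, was the single call of 20 such genes (-1.69 ± 0.44, adjusted p = 0.0384) and was at -0.64 (adjusted p = 0.874) without Cdh3 replicate 2. It also lost its call without Isl2 replicate 1, Isl2 replicate 2, J replicate 1, W3 replicate 2, W7 replicate 1 or W7 replicate 2 (-1.72 to -1.61, adjusted p = 0.0528 to 0.0667). Hba-a2, a haemoglobin gene, was lower (-1.25 ± 0.24, adjusted p = 0.00482), and at -0.96 (adjusted p = 0.155) without replicate 1. No cell cycle gene of 15 and no axon cytoskeleton gene of 25 passed. The part of microglia, pericyte and rod RNA in the differences of other genes was not tested. More calls were lost with a pseudocount of 1 for Pf4 (-3.03), with a pseudocount of 64 for F13a1 (-0.76), Mrc1 (-0.56) and Hba-a2 (-0.84) and without the Isl2 subtype for Pf4 (-1.32), F13a1 (-0.69) and Mrc1 (-0.70). Over all alternatives Tfap2c was at -2.57 to -0.42 with its call lost in 13 of 31 and Fos was at -2.74 to -0.64 with its call lost in 14 of 30.

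The AII amacrine cells were the only other arrays from a Swiss Webster cross (Swiss Webster x C57BL/6), and their levels are given beside the Cdh3 differences because no subtype was profiled both with and without a Swiss Webster parent. Over all genes tested, 4.43% were at least 1 log2 unit higher in AII than in the 8 other amacrine arrays, without overlap, and 7.36% were lower. Of the 176 genes higher in Cdh3 cells, 26 were higher in AII cells (14.8%, or 4.21% of the 618 genes higher in AII) and 16 were lower (9.09%). Of the 115 genes lower in Cdh3 cells, 12 were lower in AII cells (10.4%, or 1.17% of 1027) and 13 were higher (11.3%). Shares above those of all genes were thus seen in the same and in the opposite direction. Cdh1 was 5.13, Shisa6 4.15 and Ndnf 3.32 higher in AII than in the other amacrine cells. Cdh1 averaged 11.29 in AII cells and 10.85 in starburst amacrine cells (C57BL/6). Ndnf averaged 10.24 in AII cells and 11.44 in ON bipolar cells (C57BL/6). Shisa6 averaged 10.98 in AII cells, with MP amacrine cells next among the amacrine and bipolar subtypes at 8.58. Between AII and the other amacrine cells Gpr6, Tbx20 and Opn4 differed by -0.34, -0.19 and -0.02. Eomes was at 5.17 in AII cells and reached 10.83 in PaxCre amacrine cells. The part of strain in the Cdh3 differences was not tested.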

How the data were processed

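Single-colour Affymetrix arrays of sorted retinal neurons were used as deposited. The deposited values are intensities on a linear scale with a floor near 1, with software and scaling not given in the sources used here. Per the labels' protocols, RNA was amplified in 2 rounds and labelled with biotin. Raw array files were not analysed here.

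The scale of analysis was log2(intensity + 16), which understates differences of dim genes. The 26 arrays were then quantile normalized, since their medians spread over 0.76 log2 units. The brightest of the probe sets with 1 symbol stood for each of 18193 genes, leaving out 932 probe sets with several symbols and 9160 with none. Symbols came from the platform annotation and were updated by gene identifier. Testing required a level above the overall median (6.14) on 2 or more of the 26 arrays, a filter that 13951 genes passed. One limma 3.58.1 fit in R 4.3.3 held a mean for each of 13 subtypes (13 residual degrees of freedom), and Cdh3 was set against the unweighted mean of BD, Isl2, J, W3 and W7. Tests were two-sided with Benjamini-Hochberg adjustment over all genes tested, and every adjusted p is from limma. The spread between replicates is that of litters within a subtype, with 2 replicates each, which limits precision. The code was tested on simulated data.

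Named genes are the 15 highest and 15 lowest among genes that passed with groups that did not overlap, members of 40 gene lists (844 symbols, 667 tested) that passed, the largest of those that did not, genes next to Cdh3 and markers. The members and lists were chosen with earlier results of these data known. Alternatives covered normalization, filters, pseudocounts, probe sets, variance models, units, subtypes and single arrays left out.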

Additional observations from a re-analysis of the deposited data

How the results depend on the processing

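Of the 31 alternatives, most kept the count of 291 genes within a factor of 1.5. The exceptions were the next brightest probe set of a gene (89 genes, 55 higher and 34 lower, from 6267 genes with more than 1 probe set), subtype means as units (21, with 20 higher and 1 lower, a fit on 6 means) and leaving out Cdh3 replicate 2. Leaving out single arrays gave 175 to 359 genes, 110 to 209 higher and 65 to 211 lower. The extremes belonged to the Cdh3 arrays except for the 209 higher genes without BD replicate 1, and a lone Cdh3 array was assumed to vary like the other groups. A pseudocount of 64 left 116 higher genes and a stricter filter on dim genes 114. With the columns as deposited 320 genes passed, 69.1% of them higher against 60.5%, and the median of all genes lay at 0.11. Without Cdh3 replicate 1, 41.2% were higher. With the stricter filter, 51.6% were higher.

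Of the 176 higher genes, 68 kept their call without each Cdh3 array in turn, and of the 115 lower ones 42. Of the 15 largest rises, 13 did; Trhde did not and Gpr6 could not be tested without them. Of 100 called genes followed by name, 41 passed in every setting in which they were tested except subtype means and 11 in every setting in which they were tested (51 had a next brightest probe set to test, of which 17 passed). The 11 included Gpr6, Tph2, Ces1d and Crybg1, tested only because both Cdh3 arrays were above the overall median. With either Cdh3 array left out, 96 of the 100 could be tested, and these genes could not. Tph2 and Ces1d were also picked after their values were seen. The sign turned in 5 cases, each with the next brightest probe set: Calb1 (-0.073), Chrna6 (0.417), Glra1 (0.257), Sdk2 (-0.366) and Sfrp1 (-0.023). The cause was not tested. With the replicate number as a block (replicate block) 298 genes passed, 290 of them among the 291. The labels tie no litter across subtypes, and same-numbered deviations of Cdh3 and the other subtypes correlated at -0.089 to 0.345, so the numbers were not taken as pairs. Dim genes, and differences near the floor of 4.09, are bounds set by signal over background.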
